A study of Caenorhabditis elegans with 2 samples.

Results

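Small nucleolar RNAs (snoRNAs) are short non-coding RNAs that guide chemical modification of ribosomal RNA: box C/D snoRNAs guide 2′-O-methylation and box H/ACA snoRNAs guide pseudouridylation. Many animal snoRNA genes lie in introns of protein-coding host genes and are released from the spliced intron, while others are transcribed from a promoter of their own. The genes described here are those of snoRNA biotype in Ensembl release 115 that lie wholly inside a protein-coding gene on the same strand. This gave 183 of 346 snoRNA genes on the 6 nuclear chromosomes, out of 46890 annotated genes of all kinds. RefSeq also lists 182 of the 183 as snoRNA genes and 1 as another non-coding RNA. The 183 genes sat in 159 coding hosts, and 3 of them lay in a pair of overlapping hosts.

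The data are ChIP-seq peak lists from 2 biological replicates of whole, mixed-sex L1 larvae of Caenorhabditis elegans strain OP217, with genotype unc-119(ed3) III; ddIs172. The insertion expresses ALY-2 tagged with eGFP, a member of the ALY/REF family, whose members bind messenger RNA and act in its export from the nucleus. The labels name aly-2 as the target and do not name the antibody. Both replicates form 1 group and no control library was used here, so no condition is compared and no difference was tested. Because the larvae were whole, the cell types behind a peak cannot be told apart. The authors' final list held 1446 peaks, the pooled list 15675, and the lists of replicates 1 and 2 held 26798 and 25463. By its name the pooled list holds peaks and background, so its entries may include background. How deeply the libraries were sequenced is unknown. The highest 1446 peaks of each replicate list gave the spread between replicates, and each peak was placed by its summit.

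Each snoRNA gene has 3 places where a peak could sit. These were the snoRNA itself (within 500 bp of the gene), the promoter of the host (1000 bp before its 5′ end to 200 bp after it) and the 3′ end of the host (within 500 bp). A final summit lay within 500 bp of 37 of 183 snoRNA genes (20.2%, exact Clopper-Pearson 95% interval 14.7 to 26.8). The replicates gave 33 and 37 genes, or 19.1% ± 1.55 (SD, n = 2). Other non-coding genes nested on the same strand of a coding gene had a final summit in 78 of 4401 cases, or 1.77%. Among those, tRNA genes had 24 of 167 (14.4%), small nuclear RNA (snRNA) genes 6 of 37 (16.2%) and piRNA genes 8 of 2872 (0.279%). The 163 snoRNA genes outside same-strand hosts had a summit in 45 cases (27.6%, exact interval 20.9 to 35.1), an interval that overlapped that of the intragenic genes. Of these 163, 33 lay inside a coding gene on the opposite strand, and 9 of those had a final summit. These intervals cover counting error only and treat genes as separate, although neighbours can share 1 summit.

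The hosts themselves carried summits at both ends. A final summit lay at the promoter of 40 of 159 hosts (25.2%, exact interval 18.6 to 32.6; 22.3% ± 1.33 in the replicates, SD, n = 2), beside 5.58% of all 19973 coding genes. It lay at the 3′ end of 31 of 159 hosts (19.5%, exact interval 13.6 to 26.5; 18.2% ± 3.56 in the replicates, SD, n = 2), beside 3.41% of all coding genes. Both host intervals lay wholly above the share of all coding genes. Hosts were long genes, with a median span of 5578 bp against 2027 bp for all coding genes. Among the 79 hosts in the middle quartiles of span, 19 had a promoter summit (24.1%) and 16 a 3′ summit (20.3%). Coding genes of the same spans that host no snoRNA had 443 of 7147 (6.2%) and 272 of 7147 (3.81%). In the pooled list, 100 of 183 snoRNA genes (54.6%), 81 of 159 host promoters and 97 of 159 host 3′ ends held a summit. The same windows of all coding genes held a pooled summit in 24.9% of promoters and 22.0% of 3′ ends, and the other nested non-coding genes did in 17.0% of cases.

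**Figure D1:**
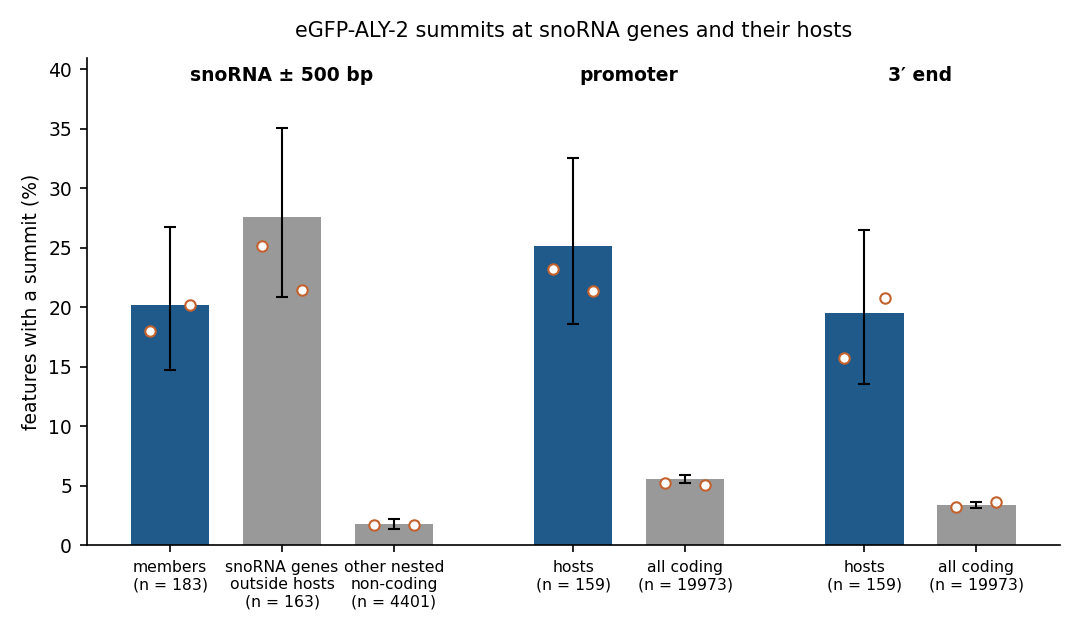
Share of features (y axis, percent) with a summit at the snoRNA, the host promoter and the host 3′ end, with snoRNA genes inside hosts and their hosts in blue and other genes in grey. Bars show the final list with exact 95% intervals and open circles show replicate 1 (left) and replicate 2 (right), each cut to its highest 1446 peaks. Hosts had a summit at 25.2% of promoters and 19.5% of 3′ ends, beside 5.58% and 3.41% of all coding genes.

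Each gene was then scored by which of its 3 sites held a summit. In the final list 89 of the 183 snoRNA genes had no summit at any of the sites. The host promoter alone held a summit for 34 genes, the host 3′ end alone for 14 and the snoRNA window alone for 13. A further 10 had summits in the snoRNA and promoter windows, 10 in the snoRNA and 3′ windows, 9 at both host ends and 4 in all 3 windows. In the pooled list most genes had more than 1 site filled: 48 had all 3, 28 the snoRNA and the 3′ end, 24 both host ends and 11 the snoRNA and the promoter, against 19, 15 and 13 with the promoter, 3′ end or snoRNA alone and 25 with none. These windows overlap in short hosts, so 1 summit can fill several of them. Each of the 37 distinct final summits within 500 bp of a snoRNA gene was therefore given to the nearest of the snoRNA body, the host 5′ end and the host 3′ end. The snoRNA was nearest for 27 of 37 summits (73.0%), the host 5′ end for 7 and the host 3′ end for 3. The replicates gave 23 of 33 and 27 of 36. The share depends on the window: with 250 bp it was 26 of 27 summits (96.3%) and with 1000 bp 29 of 53 (54.7%). It is also partly fixed in advance. Around the 85 snoRNA genes more than 1000 bp from both host ends, no summit in the 500 bp window can lie nearer a host end. Those genes gave 13 of the 27 summits. In the pooled list, which may include background, the share was 90 of 114 (78.9%). The share alone therefore does not show where peaks prefer to sit.

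The 27 summits nearest a snoRNA lay close to it. Of these, 7 fell inside the snoRNA gene and 24 lay no more than 120 bp away. Relative to the 5′ end of the snoRNA gene the median position was 27 bp upstream, and the farthest were 158 bp upstream and 456 bp downstream. Of the 27, 13 lay from 0 to 120 bp upstream of the 5′ end, with the summit between C51F7.4 and C51F7.3 measured from C51F7.4. A host intron held 25 of the summits and a host exon 2. All 27 had a matching summit within 180 bp in both replicate lists. This adds little, since the final list was called over both replicates and the replicate lists are long. Matches went as low as rank 12016 in replicate 1 and rank 12422 in replicate 2. Of the 27, 17 ranked among the highest 1446 in both. The signal of the 27 summits, the authors' own value per peak, had a median of 60.6, against 58.8 over the whole final list. In 7 cases a non-coding RNA gene lay as near to the summit as the snoRNA, and in 1 of them, at fars-1, so did a pseudogene, and a promoter window of another coding gene held 4 of the summits.

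**Figure D2:**
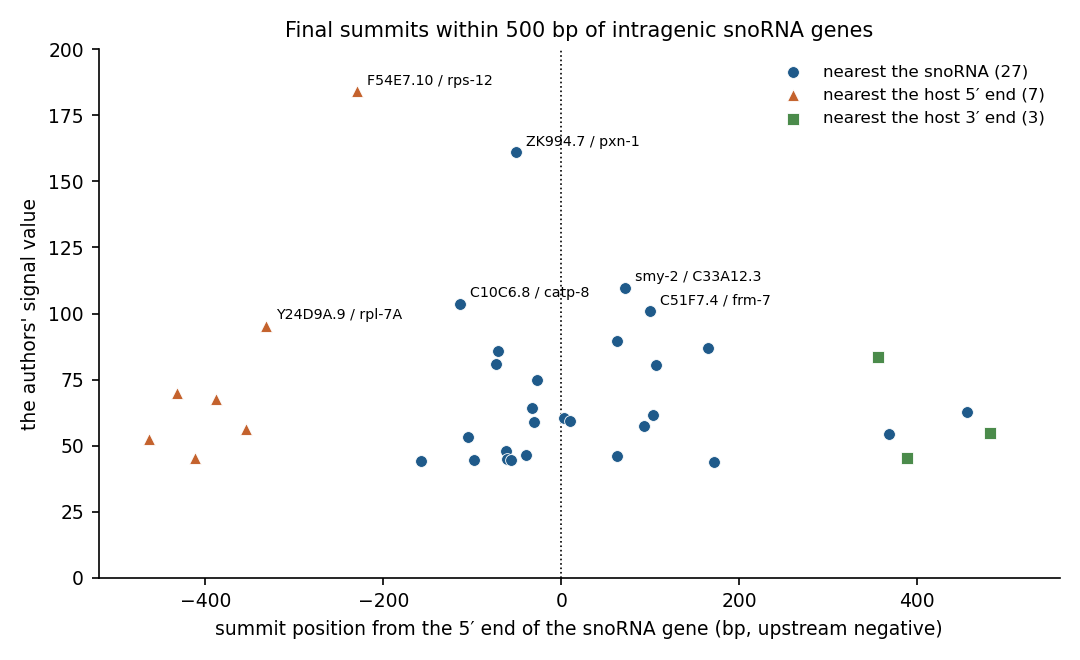
Final summits within 500 bp of an intragenic snoRNA gene, by position from the snoRNA 5′ end (x axis, bp, upstream negative) and the authors' signal value (y axis), with the marker showing the nearest site. The 27 summits nearest the snoRNA cluster around its 5′ end, while the 7 nearest the host 5′ end lie from 230 to 463 bp upstream. One summit between C51F7.4 and C51F7.3 is drawn once, 99 bp from the 5′ end of C51F7.4.

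The 12 of these summits with the highest signal stood at snoRNA genes in hosts of many kinds. ZK994.7 is a 67 bp snoRNA gene on chromosome V (ce11, 8500579 to 8500645, plus strand) in a 341 bp intron of pxn-1, which encodes a peroxidasin homologue, an extracellular matrix enzyme. Its summit lay 51 bp upstream of the snoRNA with a signal of 161 in the final list, where it ranked 51, and with 95.1 (rank 26) and 68.9 (rank 89) in replicates 1 and 2. The pxn-1 promoter lay 5639 bp away and held no final summit. Both replicates thus listed the intronic peak high.

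smy-2 lies on chromosome IV (9511395 to 9511466, minus strand) in an 831 bp intron of C33A12.3, a gene of the UPF0462 family. Its summit, at 71 bp from the 5′ end, was within the snoRNA gene and had a signal of 110, with 56.1 and 49.6 in replicates 1 and 2. This summit also lay in the promoter window of another coding gene, C33A12.4. C10C6.8 lies on chromosome IV (11474059 to 11474191, minus strand) in an intron of catp-8, which encodes a putative manganese-transporting ATPase. A summit 114 bp upstream of it had a signal of 104 (replicates 48.8 and 54.4). A non-coding RNA gene, C10C6.11, lay at least as near to this summit as the snoRNA. The catp-8 promoter had a separate summit of lower signal, 53.3. The pair C51F7.4 and C51F7.3 in frm-7, a gene for a FERM domain protein on chromosome V, shared 1 summit with a signal of 101 (replicates 41.3 and 57.1). It lay 10 bp upstream of C51F7.3 and 5 bp past the end of C51F7.4. The 3′ end of frm-7 had its own summit, with a signal of 72.7.

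The next members had signals between 62.8 and 89.4. F01D5.12 in F01D5.10, a carbohydrate sulfotransferase gene, had a summit inside the snoRNA gene with a signal of 89.4 (replicates 45.5 and 44.3). Y37E3.20 in pcyt-2.1, a gene of phosphatidylethanolamine synthesis, had 86.9, with 48.9 in replicate 2. That final summit lay 165 bp downstream of the snoRNA 5′ end, 47 bp past the snoRNA gene. It also lay 478 bp before the pcyt-2.1 3′ end, so it counted at that end too, and in the 3′ window of iglr-3. In replicate 1 the peak of highest signal at this snoRNA had 41.4 (rank 328), with its summit 11 bp from the snoRNA 5′ end, and a weaker one of 14.1 lay closer to the final summit. M106.6 stands 16071 bp inside mix-1, which encodes a subunit of condensin and of the dosage compensation complex. Its summit lay 71 bp upstream with a signal of 85.9, and the mix-1 promoter had one of 52.4. Y38F2AR.14 in a 5-oxoprolinase gene (80.8), T06D8.11 in plpr-1 (80.6), K11C4.6 in unc-70 (74.9) and C05D2.15 in madf-11 (64.3) had no final summit at either host end. The gene unc-70 encodes beta-spectrin, a protein of the membrane skeleton. At F01D5.12, K11C4.6 and C05D2.15 another non-coding RNA gene lay at least as near to the summit as the snoRNA. These were F01D5.14, K11C4.7 and C05D2.17. K02F3.15 in zip-2, a bZIP transcription factor gene, had a signal of 62.8, but its summit lay 282 bp past the end of the snoRNA gene. The replicates placed these summits at similar ranks for K11C4.6 (397 and 414) and less so for M106.6 (214 and 648).

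Of the 26 hosts with a summit nearest their snoRNA, 6 also had a promoter summit, 9 a 3′ summit and 13 neither. For 3 of these hosts the summit in the 3′ window was that of the snoRNA itself, and without these 28 of 159 hosts had a 3′ summit. Hosts with more than 1 such peak, or with stronger ones at their ends, included rol-3, cdc-48.1 and hsp-1, which were chosen after their values were seen. C16D9.11 in rol-3 had 2 final summits nearest it, 103 bp downstream and 98 bp upstream of its 5′ end, with signals of 61.4 and 44.5. Both matched the same peak of replicate 1, and the second was weak in replicate 2, with a signal of 10.7 at rank 12422. In cdc-48.1, which encodes a p97-type ATPase, the peak at the promoter had a signal of 515 and that at the snoRNA C06A1.8 had 60.6. F26D10.24 lay in hsp-1, which encodes a constitutive Hsp70 chaperone, with a signal of 57.5, against 125 at the hsp-1 promoter and 328 at its 3′ end.

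**Figure D3:**
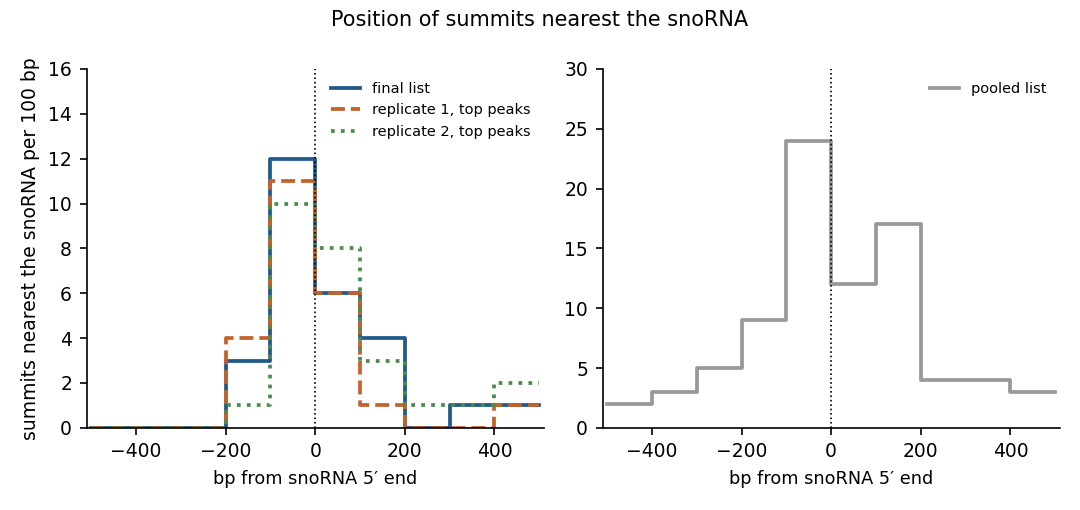
Number of summits nearest the snoRNA in 100 bp bins (y axis) by distance from the snoRNA 5′ end (x axis, bp, upstream negative), for the final list and the highest 1446 peaks of each replicate (left) and for the pooled list (right). The bin from 100 to 1 bp upstream is the fullest in all 4 lists, with 12, 11, 10 and 24 summits. A summit near a pair of snoRNA genes is counted at the closer 5′ end.

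Introns of the hosts gave a comparison within the same genes. Of 143 introns with a snoRNA member, 26 held a final summit (18.2%), against 8 of 1230 other introns of the same hosts (0.65%). Each replicate gave 16.8% for the introns with a member, and 0.813% and 0.732% for the other introns. Introns with a member were longer, with a median of 390 bp against 127.5 bp. Among introns of 200 bp or longer, 25 of 123 with a member held a summit (20.3%), against 7 of 538 without (1.3%). Per 100 kb of intron there were 8.47 final summits with a member and 1.54 without. In the pooled list these densities were nearer each other, at 36.7 with a member and 25.1 without. Introns with a member total 318951 bp, and that of C52G5.13 on chromosome X spans 100801 bp by itself. That snoRNA had no final or pooled summit within 500 bp. Both densities with a member therefore depend strongly on 1 long intron, whose summits were not counted apart. The share of introns with a pooled summit still differed, at 46.2% with a member and 10.1% without. Among introns of 200 bp or longer it was 52% and 20.4%.

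**Figure D4:**
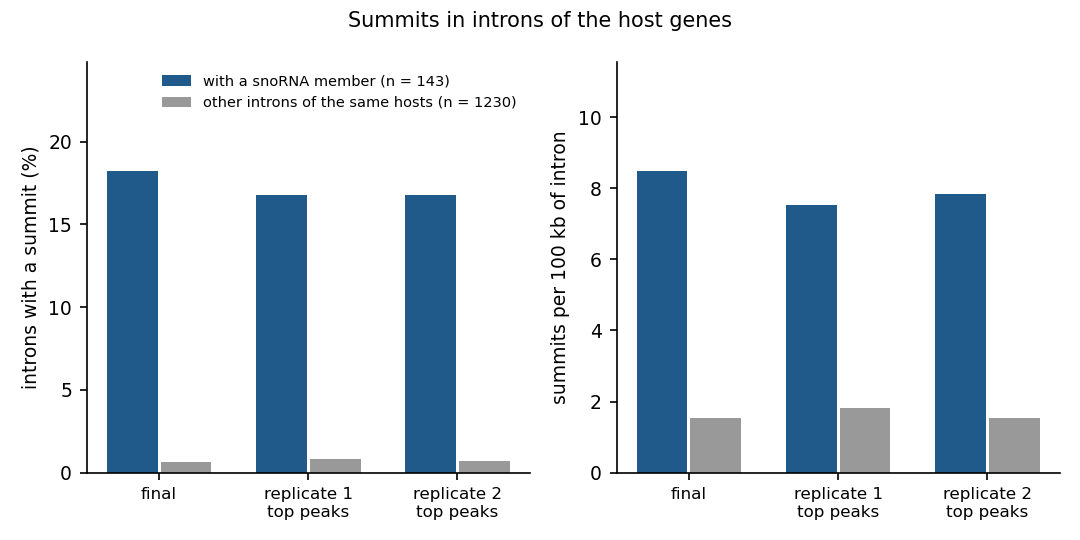
Share of host introns with a summit (left, percent) and summits per 100 kb of intron (right) for introns with a snoRNA member (blue) and the other introns of the same hosts (grey), in the final list and in the highest 1446 peaks of each replicate. Introns with a member had a summit in 18.2% of cases in the final list and 16.8% in each replicate, and the other introns in under 1%.

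Hosts were grouped by what they encode, going by gene name class and annotated product. The hosts included 15 genes for proteins of the cytosolic ribosome, among them rps-12, rpl-7A, rps-4 and rpl-6, and 12 of the 15 had a promoter summit (80%, exact interval 51.9 to 95.7). Each replicate gave 10 of 15. Ribosomal protein genes that host no snoRNA had 40 of 70 (57.1%, exact interval 44.7 to 68.9), and these intervals overlapped. Of the 23 snoRNA genes in ribosomal protein hosts, 8 had a final summit within 500 bp, and none of these 8 was nearest the snoRNA: 6 were nearest the host 5′ end and 2 the host 3′ end. These hosts are short, with a median span of 987 bp, so the 500 bp window of their snoRNAs reaches the ends of the host. Outside the ribosomal protein genes, 28 of 144 hosts had a promoter summit (19.4%, exact interval 13.3 to 26.9), and the same number had a 3′ summit.

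F54E7.10 in rps-12 had the summit of highest signal within 500 bp of any intragenic snoRNA gene, 184 in the final list and 95.4 and 85.2 in replicates 1 and 2. It lay 150 bp upstream of rps-12 and 230 bp upstream of the snoRNA, in a window shared with the promoter of ska-3. The summit near Y24D9A.9 lay 50 bp upstream of its host rpl-7A, with a signal of 95.4 (replicates 54.2 and 36.7). That near Y43B11AR.7 lay 122 bp past the 3′ end of rps-4, with 83.5 (replicates 52.3 and 32.9). Both of these also lay in the promoter window of another coding gene, set-21 and Y43B11AR.3. For all 3 summits the other coding gene lay nearer than the snoRNA.

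The 3 hosts with most snoRNAs had no final summit nearest any of them. nol-56, which encodes a core protein of box C/D snoRNA particles, holds 4 snoRNA genes in introns of 169 to 185 bp. It had 1 final summit, 212 bp upstream of the gene with a signal of 56.4 (replicates 34.5 and 26.7). rpl-6 holds 3 and had a promoter summit with a signal of 47.9, and top-2, which encodes DNA topoisomerase II, holds 3 and had summits of 83.8 and 85.1 at its 5′ and 3′ ends. In both, no final summit lay within 500 bp of a snoRNA. Another 20 hosts held 2 members and 136 held 1. Hosts with translation factor names had a promoter summit in 2 of 3 cases. The count was 2 of 6 for splicing and RNA-binding protein hosts and 2 of 4 for chaperone and protein turnover hosts. Among the 128 hosts outside the named groups it was 20 (15.6%). These groups are incomplete and can misplace a gene, because they follow name classes and product wording. In the translation factor group, eif-4A3 had no promoter summit. It was placed there by its name, while its annotated product is an RNA helicase. Also, cnx-1 (calnexin), wwp-1 (an E3 ubiquitin-protein ligase) and prpf-4 (a PRP4 homologue) fell outside the named groups. The 128 hosts outside the named groups held 137 of the 183 snoRNA genes, and 24 of the 27 with a summit nearest them.

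Counts were also taken by the distance between the snoRNA and the host 5′ end. Among 32 snoRNA genes up to 500 bp from the host 5′ end, 10 had a final summit in their window and 2 had one nearest them. Among 79 genes more than 3000 bp away, 13 had a summit in their window (16.5%) and 12 had one nearest them. Between 1000 and 3000 bp the counts were 11 and 11 of 47. More than 1000 bp from the host 5′ end, a summit in the 500 bp window is always nearer the snoRNA than that end. By chromosome, a summit nearest the snoRNA stood at 4 of 36 genes on I, 7 of 35 on II, 2 of 38 on III, 6 of 28 on IV, 8 of 36 on V and 0 of 10 on X. For chromosome X a limit of 3 counts allows a share of up to 30%.

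At the 3′ ends, 13 hosts had a summit there and at neither of the other sites. The 5 of highest signal were ubxn-3 (109), let-607 (107), acsd-1 (98.4), zig-11 (92.5) and F32B4.5 (90.1). The let-607 summit, 55 bp before the end of a gene for a CREB-H type transcription factor, lay in no promoter window and at no 3′ end of another coding gene. The summits of ubxn-3, acsd-1 and F32B4.5 lay in the promoter window of a neighbour, and that of zig-11 at the 3′ end of cct-7. Over all 31 hosts with a 3′ summit, 14 summits lay in another promoter window, 11 at another 3′ end and 9 at neither. Of the 40 hosts with a promoter summit, 24 shared it with the promoter window of another coding gene, so a host-end peak cannot always be given to the host.

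The stretch just upstream of the snoRNA genes with a summit nearest them held short words that recurred at similar distances from it. The first pair, called snRNA-type here, is CGNAACNCG followed after 5 bases by TGTCNG, and it was found at 21 of 129 snRNA genes (16.3%) and at 4 of 19973 coding genes (0.02%). The second, called tRNA-type, is TGGNNNA, 1 to 4 bases, GG, 15 to 60 bases and GTTC. These letters resemble box A and box B, the internal promoter of tRNA genes that is bound by the factor TFIIIC, and 354 of 612 tRNA genes (57.8%) held them in their first 100 bases. Both were searched on the strand of the gene in 200 bases, from 150 bases upstream to 50 bases inside the gene. The words were read from members with a final summit, so their counts at members are a description with no test. The sequences printed here run from 100 bases upstream to 30 bases inside the snoRNA gene and show how alike the stretches are. The first set holds 7 of the 8 genes with the snRNA-type pair and a summit nearest them, in order of signal, and leaves out Y37E3.20, whose pair began 61 bases upstream. Capitals mark both words.
ZK994.7 (in pxn-1, chrV:8500479-8500608, plus strand): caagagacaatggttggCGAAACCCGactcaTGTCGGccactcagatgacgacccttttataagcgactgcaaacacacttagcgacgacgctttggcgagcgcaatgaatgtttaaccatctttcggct
smy-2 (in C33A12.3, chrIV:9511437-9511566, minus strand): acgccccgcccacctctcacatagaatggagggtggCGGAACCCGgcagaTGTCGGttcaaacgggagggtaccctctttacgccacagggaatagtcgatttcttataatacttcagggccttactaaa
F01D5.12 (in F01D5.10, chrII:14018412-14018541, minus strand): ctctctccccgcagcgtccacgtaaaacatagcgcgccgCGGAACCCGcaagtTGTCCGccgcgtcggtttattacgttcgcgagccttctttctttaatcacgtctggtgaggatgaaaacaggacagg
T06D8.11 (in plpr-1, chrII:11224082-11224211, plus strand): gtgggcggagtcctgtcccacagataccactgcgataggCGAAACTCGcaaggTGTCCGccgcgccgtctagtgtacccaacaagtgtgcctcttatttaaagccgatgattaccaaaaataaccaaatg
C16D9.11 (in rol-3, chrV:8228940-8229069, minus strand): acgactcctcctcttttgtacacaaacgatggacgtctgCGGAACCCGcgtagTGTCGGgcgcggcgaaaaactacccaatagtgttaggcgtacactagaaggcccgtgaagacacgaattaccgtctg
C08D8.3 (in C08D8.1, chrV:8349008-8349137, plus strand): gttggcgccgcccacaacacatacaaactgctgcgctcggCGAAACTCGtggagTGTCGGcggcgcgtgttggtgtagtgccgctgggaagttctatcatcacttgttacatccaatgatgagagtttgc
W04D2.7 (in inx-11, chrV:12491180-12491309, plus strand): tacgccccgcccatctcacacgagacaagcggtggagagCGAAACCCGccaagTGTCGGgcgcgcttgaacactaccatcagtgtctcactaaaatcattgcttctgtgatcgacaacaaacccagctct
In 7 of the 8 genes with this pair and a summit nearest them, the pair began from 66 to 50 bases upstream of the snoRNA 5′ end, and in ZK994.7 it began 83 bases upstream.

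The second set holds the 6 genes of highest summit signal with the tRNA-type pair, the frm-7 pair being shown once from C51F7.3, with capitals on the first and last words.
C10C6.8 (in catp-8, chrIV:11474162-11474291, minus strand): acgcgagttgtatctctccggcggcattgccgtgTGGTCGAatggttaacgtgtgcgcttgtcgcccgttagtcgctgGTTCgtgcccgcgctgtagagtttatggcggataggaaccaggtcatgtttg
C51F7.3 (in frm-7, chrV:12303608-12303737, plus strand): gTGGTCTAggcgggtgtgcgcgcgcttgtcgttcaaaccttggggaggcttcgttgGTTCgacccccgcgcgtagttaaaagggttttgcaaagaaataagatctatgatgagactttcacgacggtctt
M106.6 (in mix-1, chrII:10840217-10840346, plus strand): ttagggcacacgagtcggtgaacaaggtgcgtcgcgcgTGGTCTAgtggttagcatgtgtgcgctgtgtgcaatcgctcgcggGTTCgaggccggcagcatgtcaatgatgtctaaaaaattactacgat
Y38F2AR.14 (in Y38F2AR.12, chrIV:2408606-2408735, minus strand): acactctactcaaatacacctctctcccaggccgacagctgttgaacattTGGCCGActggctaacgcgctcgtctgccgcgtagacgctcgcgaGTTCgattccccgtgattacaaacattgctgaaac
K11C4.6 (in unc-70, chrV:6888976-6889105, plus strand): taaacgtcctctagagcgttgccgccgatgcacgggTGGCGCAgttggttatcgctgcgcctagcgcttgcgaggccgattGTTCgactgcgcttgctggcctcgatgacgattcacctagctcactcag
C05D2.15 (in madf-11, chrIII:5602150-5602279, minus strand): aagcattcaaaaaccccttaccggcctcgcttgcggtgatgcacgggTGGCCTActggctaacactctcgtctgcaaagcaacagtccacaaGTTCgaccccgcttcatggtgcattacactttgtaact
Over the 12 genes with the tRNA-type pair and a summit nearest them, the words began at a median of 61.5 bases before the snoRNA 5′ end, and 10 of 12 began from 66 to 50 bases before it. C51F7.4 and C51F7.3 share 1 copy of the words, which begins 10 bases inside the first gene and 99 bases before the second. RefSeq annotates a tRNA pseudogene within 500 bp of 2 of the 27 summits and no tRNA gene within that distance of any. The fars-1 summit lay inside its pseudogene and 40 bp from the snoRNA T08B2.13, one of the 12 genes with the tRNA-type pair. The cfim-2 summit lay inside the snoRNA D1046.6 and 2 bp from the pseudogene.

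Together the word pairs were found at 20 of the 27 snoRNA genes with a final summit nearest them, 8 of the snRNA-type and 12 of the tRNA-type, and no gene held both. None of the 10 genes whose final summit was nearest a host end held either pair. Of 63 genes with only a pooled summit 1 held the snRNA-type and 5 the tRNA-type, and of 83 genes with no pooled summit the counts were 1 and 5. Among all coding genes, the tRNA-type pair stood in 109 of 19973 windows of the same length (0.546%). Searched on both strands, the snRNA-type counts did not change, while the tRNA-type was found at 26 of 183 members in place of 22 and at 1.65% of coding genes.

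Read from the other side, 8 of 10 snoRNA genes with the snRNA-type pair had a final summit within 500 bp (80%, exact interval 44.4 to 97.5), with 7 and 8 in the replicates. The other 2 were F54F11.6 in sre-45, with a pooled summit only, and Y73B6A.14, with none. Of 22 genes with the tRNA-type pair, 12 had a final summit (54.5%, exact interval 32.2 to 75.6), with 12 and 10 in the replicates. Of the 151 genes with neither pair, 17 had one (11.3%), with 14 and 19 in the replicates. The words were read from members with a final summit, so this contrast inside hosts is partly built in. The exact intervals do not allow for that. C51F7.4 and C51F7.3, with 1 copy of the words and 1 summit, count as 2 of the 12 genes. The snoRNA genes outside hosts, which were not used to read the words, had a summit at 7 of 19 genes with the snRNA-type (36.8%, exact interval 16.3 to 61.6) and 13 of 21 with the tRNA-type (61.9%, exact interval 38.4 to 81.9). With neither pair it was 25 of 123 (20.3%, exact interval 13.6 to 28.5), a share that lies inside the interval of the snRNA-type. For the tRNA-type outside hosts the replicates differed, with 15 of 21 genes in replicate 1 and 7 of 21 in replicate 2.

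**Figure D5:**
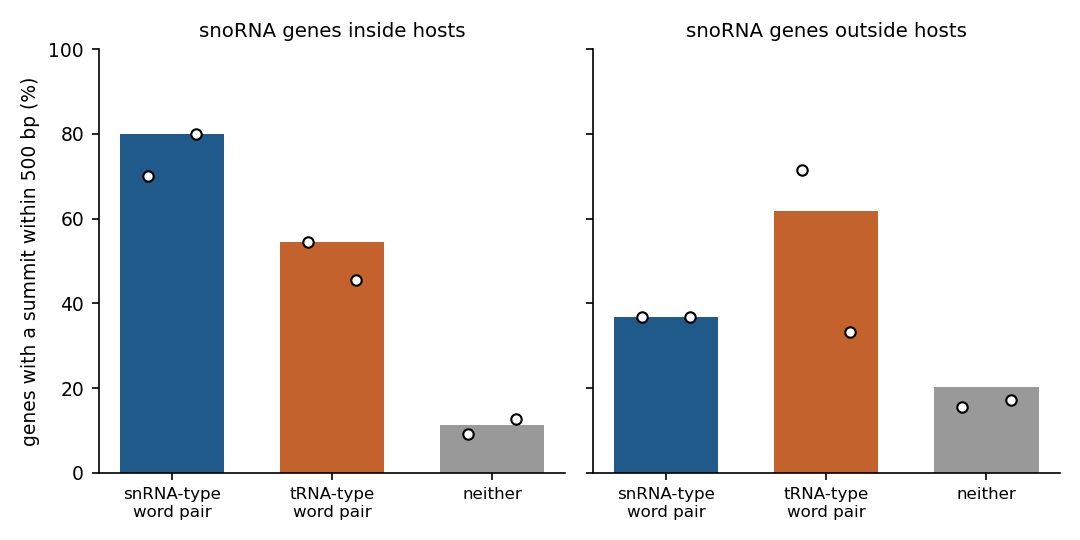
Share of snoRNA genes (y axis, percent) with a final summit within 500 bp, by the word pair found around the 5′ end, for genes inside hosts (left) and outside hosts (right). Bars show the final list and open circles replicates 1 (left) and 2 (right), each cut to its highest 1446 peaks. Inside hosts the bars stand for 8 of 10, 12 of 22 and 17 of 151 genes, and outside hosts for 7 of 19, 13 of 21 and 25 of 123. The words were read from genes inside hosts with a final summit, so the contrast on the left is partly built in.

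The position of the summit was described by pair, and no difference was tested. For the 9 summits at genes with the snRNA-type pair the median position was 62 bp downstream of the snoRNA 5′ end, with 3 of 9 upstream of it and a range of -98 to 165 bp. For the 11 summits at genes with the tRNA-type pair it was 62 bp upstream, with 10 of 11 upstream and a range of -158 to 99 bp, so the ranges overlapped. The value of 99 bp is the frm-7 summit measured from C51F7.4, and the same summit lay 10 bp upstream of C51F7.3. At snoRNA genes outside hosts the medians were 32 bp downstream over 7 genes, 2 of them upstream, and 13 bp upstream over 13 genes, 8 of them upstream. The median signals were 80.6 with the snRNA-type pair, 64.3 with the tRNA-type pair and 57.5 at the 7 summits with neither.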

How the data were processed

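Peak lists of eGFP-ALY-2 ChIP-seq from 2 biological replicates of L1 larvae were used in ce11 coordinates, which equal those of the WBcel235 assembly, and 0 peaks ran past a chromosome end. The peak files have no header lines, so they are described by the names the authors gave them and a text file that came with each replicate. The deposited files are a final list from an irreproducible discovery rate step, a pooled list and 1 list per replicate. The name of the pooled list says that it holds peaks and background as input for that step. The authors' signal value per peak and the deposited −log10 q-value are as the peak caller wrote them, and only the signal was used, to rank peaks within a list. Coordinates in the text are 1-based. For the aligner, peak caller and thresholds the sources used here give no names, and no control library was used here. Library fragments of 150 to 350 bp, per the labels, limit the precision of a summit. Genes came from Ensembl release 115, and products and sequences from RefSeq on WBcel235, with a product for all 159 hosts.

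Summits were counted in the stated windows with exact Clopper-Pearson 95% intervals (Python 3.11.15, scipy 1.17.1, pandas 2.3.3). The highest 1446 peaks of each replicate list gave the spread. The labels do not say how the worm cultures were kept apart, so this spread may be technical. Peaks of different width in the lists were reduced to summits, and a summit in a replicate list within 180 bp counted as a match. The counting was tested on simulated summits. Members, lists and windows were chosen with earlier results of these data known. Named genes are those of the 12 summits of highest signal near a snoRNA, of the 12 of highest signal nearest a snoRNA, of the hosts with most members (3 hosts, before a tie of 20) and of the 5 strongest hosts with a 3′ summit only. The rule also asked for hosts of 3 or more members with no summit at any site, of which there were 0. All other named genes were chosen after their values were seen. Hosts were grouped by gene name class and RefSeq product.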

Additional observations from a re-analysis of the deposited data

How the results depend on the processing

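Of 38 counts under other settings, 27 lay within 1.5 times the main count and 11 did not. The main counts were 37 of 183 snoRNA genes with a summit within 500 bp, 40 and 31 of 159 hosts with a promoter and a 3′ summit, and 27 of 37 summits nearest the snoRNA. With the window widened to 1000 bp, 57 snoRNA genes had a summit and 29 of 53 summits (54.7%) were nearest the snoRNA. With 250 bp that was 26 of 27 (96.3%), and with whole peaks in place of summits 27 of 47 (57.4%). The upper 50% of final peaks gave 22 snoRNA genes, 22 promoters, 19 3′ ends and 16 of 21 summits nearest the snoRNA. The whole pooled list gave 100 snoRNA genes, 81 promoters, 97 3′ ends and 90 of 114 summits. For the 85 snoRNA genes more than 1000 bp from both host ends, 14 had a summit and 13 of 13 were nearest the snoRNA. That last share was fixed in advance, because a summit within 500 bp of such a gene cannot lie nearer a host end. These settings change the number of peaks, windows or genes by construction. Leaving out a replicate gave 33 to 37 snoRNA genes, 34 to 37 promoters, 25 to 33 3′ ends and 23 to 27 summits. With settings chosen after seeing the data, 19 of 21 summits were nearest the snoRNA without those that had another gene as near or a tRNA pseudogene close by, and 23 of 27 without those in another coding promoter. Depth is unknown, so a gene with no summit was not shown to lack signal. No paired analysis was possible because both replicates belong to 1 group.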
